A study of Homo sapiens with 12 samples.

Results

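The transcriptome described here is that of HK-2 cells kept for 48 h in DMEM medium with phosphate-buffered saline (PBS), the vehicle control of a study of recombinant S100 proteins. It was taken from the Ctrl libraries alone, which are 3 of the 12 RNA sequencing libraries of the series, and it covers all 20286 gene IDs of the deposited table. HK-2 is an immortalised line of human kidney tubule epithelium, made from proximal tubule cells with viral oncogenes, and the labels give its genotype as WT. The other 9 libraries came from cells given S100A8, S100A9 or S100A8/S100A9, 3 libraries each, at a labelled 5 mg/mL, a unit with no second source to check it, and they were not compared here. All cells were grown in DMEM with 10% fetal bovine serum. The labels do not say that the 3 Ctrl libraries came from separate cultures, so the spread between them may be technical, and 1 line stands for the tubule.

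In the kidney, the proximal tubule takes back most of the filtered glucose, phosphate, amino acids and protein, through apical transporters and the endocytic receptors megalin and cubilin, and it secretes organic ions and makes glucose. This programme is held by the nuclear receptor HNF4A and other transcription factors. Tubule cells in culture are known to lose much of it and to take on features of spread, matrix-producing cells. Tubule cells also carry innate immune receptors, through which they answer microbes and the debris of damaged cells.

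Levels are given as FPKM, read fragments scaled to the length of the gene and the reads of the library, in libraries 1, 2 and 3 in that order where 3 values are given. A gene was counted as present where all 3 libraries had at least 1 FPKM, as below the floor where all 3 had less and at least 1 held a count, as mixed where the libraries fell on both sides, and as not detected where all 3 had 0 counts. Of the 20286 IDs, 11698 (57.7%) were present, 4343 (21.4%) were below the floor, 462 (2.28%) were mixed and 3783 (18.6%) were not detected. The libraries held 17096008, 15882193 and 17593989 counts. With these totals, a count of 0 allows up to 0.175, 0.189 and 0.171 CPM (counts scaled to the library total), which is 3 counts per library and covers counting error only. At higher floors, 6766 IDs (33.4%) had at least 10 FPKM in all 3 libraries, 583 (2.87%) at least 100 FPKM and 30 (0.148%) at least 1000 FPKM.

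The most abundant transcripts were those of the mitochondrial genome and of the protein synthesis machinery. Among the 25 genes of highest mean FPKM, 11 were encoded in mitochondrial DNA and 5 were cytosolic ribosomal protein genes, and 9 belonged to neither class. Of the 100 highest, 13 were mitochondrial, which is all of the mitochondrial protein genes, 41 were ribosomal and 46 were other genes. The 13 mitochondrial genes held 12.99 ± 0.585% of the summed FPKM (SD, n = 3 libraries) and the 77 ribosomal protein genes 9.784 ± 0.186%. The 100 highest genes together held 31.3 ± 0.576%, and the 1000 highest 59.36 ± 0.335%.

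**Figure D1:**
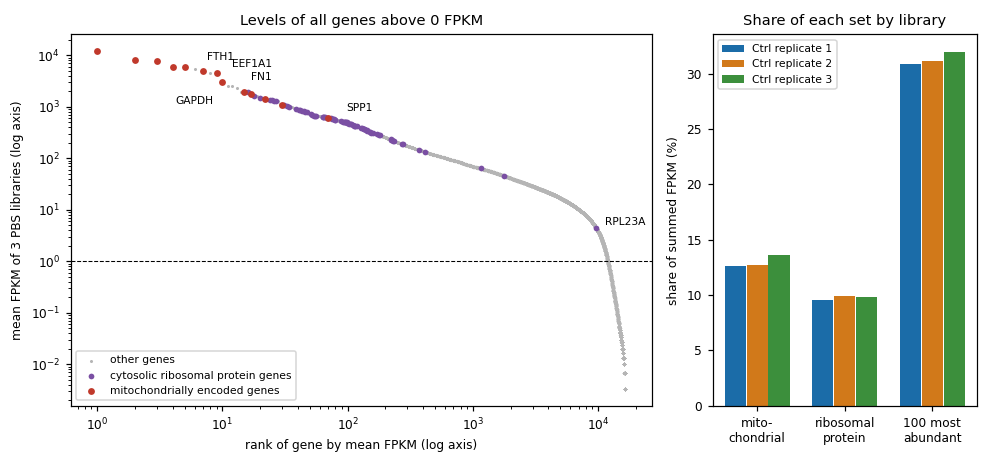
Left, mean FPKM of the 3 PBS libraries for every gene above 0, against its rank, both on log axes, with mitochondrially encoded and cytosolic ribosomal protein genes coloured and the dashed line at 1 FPKM. Right, the share of each library's summed FPKM held by those 2 classes and by the 100 most abundant genes, 1 bar per library. The curve falls over 4 orders of magnitude before the floor, RPL23A lies apart from the other ribosomal protein genes at 4.37 FPKM, and the mitochondrial share was 12.62%, 12.69% and 13.66%.

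The gene of highest level was MT-CO1, a subunit of cytochrome c oxidase, at 11393, 11736 and 12481 FPKM. MT-CO3 and MT-CO2, of the same complex, followed at means of 8112 and 7738 FPKM. The ATP synthase subunit MT-ATP6 averaged 5863 FPKM, and the complex I subunit MT-ND4 5803 FPKM. All 13 mitochondrial genes lay above 600 FPKM on average, from 610.6 FPKM for MT-ND6 to the level of MT-CO1, with a median of 4482 FPKM.

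Among nuclear genes the highest was FTH1, the heavy chain of the iron store ferritin, at 5270.3, 4936 and 5823 FPKM. Its partner FTL, the light chain, had 1264, 1449 and 1420.2 FPKM, so that FTH1 stood 3.41 to 4.17 times above it in each library. EEF1A1, which delivers tRNA to the ribosome, had 4599, 4643 and 4416.5 FPKM. GAPDH, of glycolysis, averaged 2577 ± 44.3 FPKM. In FTH1 library 3 was highest and library 2 lowest, while EEF1A1 and GAPDH were lowest in library 3.

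FN1, which encodes the matrix protein fibronectin, had 2548, 2462 and 2487 FPKM, and was the 12th gene by mean level. Because its transcript is long, it took more reads than its level per length shows. It held 1.80%, 1.73% and 1.75% of all counts, which made it the gene with the most counts in library 1 and the next after MT-CO1 in libraries 2 and 3. No other gene of the 25 highest codes for a protein of the extracellular matrix.

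The cytoskeletal actins ACTG1 and ACTB averaged 2349 ± 30.3 and 1444 ± 22.8 FPKM, and ACTG1 was the higher in every library, by 1.601 to 1.659 times. The growth-related protein TPT1 averaged 1599 FPKM. The ribosomal proteins in the 25 were RPLP0 at 1895 FPKM, RPS2 at 1623 FPKM, RPL12 at 1482 FPKM, RPL26 at 1374 FPKM and RPL41 at 1354 FPKM. Further down the 100 stood the actin-binding thymosin TMSB4X at 1265 FPKM, the metallothionein MT2A at 1105 FPKM, the lysosomal precursor PSAP at 1021 FPKM and B2M, the light chain of MHC class I, at 908.6 FPKM. The last of the 100, SET, averaged 486 FPKM.

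The promoter starts of the abundant nuclear genes are shown because ribosomal protein and other translation genes are known to begin in a run of C and T bases, the start of the terminal oligopyrimidine tract that couples their translation to growth signals. Of the 14 nuclear genes among the 25, 10 were in RefSeq's promoter table (GRCh38.p14), and FTH1, RPS2 and ACTB were among the others. Each line runs from 40 bases before the annotated start to 15 bases from it, on the strand of the gene. Capitals mark 2 things: TATAA, sought on both strands (TATAA or TTATA) in the bases from 40 to 21 before the start, and an unbroken run of at least 6 C or T bases that covers a base within 5 of the start. In RPLP0 the forms TATAA and TTATA overlap.
EEF1A1 (chr6:73521018-73521072, minus strand): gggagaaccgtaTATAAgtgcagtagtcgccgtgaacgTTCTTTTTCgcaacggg
RPLP0 (chr12:120201097-120201151, minus strand): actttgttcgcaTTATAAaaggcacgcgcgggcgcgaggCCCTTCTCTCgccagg
TPT1 (chr13:45341169-45341223, minus strand): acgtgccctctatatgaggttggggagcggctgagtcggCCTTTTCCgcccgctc
RPL12 (chr9:127451392-127451446, minus strand): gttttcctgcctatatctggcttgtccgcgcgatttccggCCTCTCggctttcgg
RPL26 (chr17:8383179-8383233, minus strand): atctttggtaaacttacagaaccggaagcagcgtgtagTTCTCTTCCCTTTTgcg
RPL41 (chr12:56116593-56116647, plus strand): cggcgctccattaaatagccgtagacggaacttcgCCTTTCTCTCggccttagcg
FTL (chr19:48965269-48965323, plus strand): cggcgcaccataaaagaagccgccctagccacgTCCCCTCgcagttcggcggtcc
FN1 (chr2:215436054-215436108, minus strand): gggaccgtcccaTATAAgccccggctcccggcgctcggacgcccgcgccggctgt
GAPDH (chr12:6535224-6535278, plus strand): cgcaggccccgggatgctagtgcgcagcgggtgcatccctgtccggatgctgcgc
ACTG1 (chr17:81512785-81512839, minus strand): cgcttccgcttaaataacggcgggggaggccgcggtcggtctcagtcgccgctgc

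All 4 of the ribosomal protein genes shown, with EEF1A1, TPT1 and FTL, held such a pyrimidine run, whereas FN1, GAPDH and ACTG1 held none. In FTL the run lay wholly before the annotated start, while in the others it covered the start. Over all ribosomal protein genes with a promoter in the table, 48 of 62 (77.4%) held the run. Among the other nuclear genes of the 100 most abundant it was 13 of 39 (33.3%), among present genes 2054 of 9569 (21.5%), among genes that were not detected 534 of 2425 (22.0%), and over all 27305 promoters listed 21.9%. TATAA stood in the promoters of EEF1A1, FN1 and RPLP0. It was in 8 of the 62 ribosomal protein promoters (12.9%), in 9 of the 39 others (23.1%), in 2.81% of present genes, in 15.6% of genes that were not detected and in 4.79% of all promoters. These are matches of letters in a window and show no use of a site.

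All 77 cytosolic ribosomal protein genes were present, with a median of 497.3 FPKM, and 74 of them had at least 100 FPKM in all 3 libraries. The 3 below were RPS28 at 63.3 FPKM, RPS10 at 45.5 FPKM and RPL23A at 4.25, 4.65 and 4.22 FPKM. RPL23A, a protein of the large subunit, thus lay far under the other members, with 65, 65 and 68 counts. Ribosomal protein genes, EEF1A1, FTH1 and the actins have many processed copies in the genome, and how reads shared with such copies were counted is not stated, so their levels are uncertain in a way that the spread between libraries does not show.

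The kidney genes were uneven in the line. Some renal factors and proximal tubule enzymes stood well above the floor, while most transporters and endocytic receptors of the proximal tubule list were below it or at 0. The list of proximal tubule transporters and endocytic receptors held 15 of 47 genes present (31.9%, beside 57.7% over all IDs), 23 below the floor and 9 not detected. Its median level was 0.25 FPKM, beside 3.56 FPKM over all IDs. The proximal tubule enzymes had 17 of 34 genes present (50%, beside 57.7%), 10 below the floor and 7 not detected, with a median of 1.03 FPKM.

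LRP2 (chr2:169127109-169362685, GRCh38), which encodes the endocytic receptor megalin, had 3, 4 and 0 counts, or 7 of the 50572190 counts of the 3 libraries together. CUBN, its partner cubilin, had 15, 3 and 13 counts. Their anchor AMN stood at 0.92, 0.32 and 0.37 FPKM, below the floor in each library. DAB2, the adaptor that gathers these receptors into coated pits, was present at 5.75, 7.02 and 6.73 FPKM, and the folate receptor FOLR1 at 17.2, 17.7 and 17.7 FPKM. The receptors of this endocytic pathway were thus close to 0 while an adaptor and a cargo receptor were measured.

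Among sodium-coupled carriers, the apical phosphate transporter SLC34A1 had 3, 5 and 2 counts and SLC34A3 had 2, 8 and 8 counts. Phosphate uptake genes of wide tissue range were present, with SLC20A1 at 69.2, 65.7 and 68.2 FPKM and SLC20A2 at 5.82, 5.37 and 4.48 FPKM. The glucose carriers split in the same way. SLC5A1 was not detected, SLC5A2, the main apical glucose transporter of the early proximal tubule, stood at 0.21, 0.24 and 0.30 FPKM, and the basolateral SLC2A2 had 2, 1 and 2 counts. SLC2A1, the glucose transporter of most cultured cells, had 91.8, 81.6 and 89.2 FPKM, 297 to 437 times the level of SLC5A2. With 6.66 to 11.22 estimated counts of SLC5A2, that ratio is imprecise.

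Most organic ion transporters of the list were at or near 0. The organic anion transporters SLC22A6 and SLC22A8, the urate transporter SLC22A12 and the extrusion pump SLC47A1 were not detected, and SLC22A2 and SLC22A7 had at most 6 counts in any library. SLC22A18, of the same gene family, was present at 7.99, 8.39 and 7.78 FPKM. Also not detected were the amino acid carrier SLC6A19, the sulfate carrier SLC13A1 and the lactate carriers SLC5A8 and SLC5A12. The water channel AQP1, abundant in the proximal tubule and thin limb, had 0, 1 and 5 counts. Efflux pumps were partly present: ABCB1 averaged 10.4 FPKM and ABCC4 9.05 FPKM, while ABCC2 and ABCG2 were below the floor, at 0.46 and 0.54 FPKM on average.

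The highest members of the transporter list were genes that many cell types use. SLC16A1, a carrier of lactate and pyruvate, had 94.3, 89.99 and 88.2 FPKM, and SLC16A3, which exports lactate, averaged 36.2 FPKM. The sodium pump subunit ATP1B1 averaged 58.3 FPKM. The bicarbonate cotransporter SLC4A4, which acts at the basolateral side of the proximal tubule, was present at 5.28 ± 0.33 FPKM. The apical sodium-proton exchanger SLC9A3 was close to the floor, at 1.71, 1.81 and 1.43 FPKM.

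Several brush-border and proximal tubule enzymes stood well above the floor. The peptidase DPP4 had 90.05, 89.3 and 91.3 FPKM, the gamma-glutamyltransferase GGT1 28.5, 28.5 and 27.1 FPKM, and neprilysin, encoded by MME, 20.2, 22.1 and 20.7 FPKM. GPX3, the secreted glutathione peroxidase made mainly by the kidney, averaged 53.7 FPKM. The apical scaffold PDZK1 averaged 21.2 FPKM, and MIOX, which breaks down inositol and is largely confined to the kidney, 14.5 FPKM. Their SDs over the libraries were 0.79 to 3.95 FPKM, with GPX3, which differed between the libraries beyond counting error, at the upper end.

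Other enzymes of the same segment were near 0. ANPEP, a marker peptidase of the brush border, had 1, 3 and 4 counts, and ALPL had 5, 6 and 2 counts. In glucose production, FBP1 and the cytosolic PCK1 stood at 0.06 to 0.28 and 0.08 to 0.12 FPKM, and G6PC1 was not detected. The mitochondrial PCK2 had 39.0, 46.1 and 37.0 FPKM, 384 to 462 times the level of PCK1. The 6 to 8 counts of PCK1 leave that ratio imprecise. In vitamin D metabolism, the inactivating CYP24A1 averaged 11.7 FPKM while the activating CYP27B1 had 0.74, 0.50 and 0.62 FPKM. CYP4A11, HAO2, CA4, UGT1A9 and GSTA1 were not detected.

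**Figure D2:**
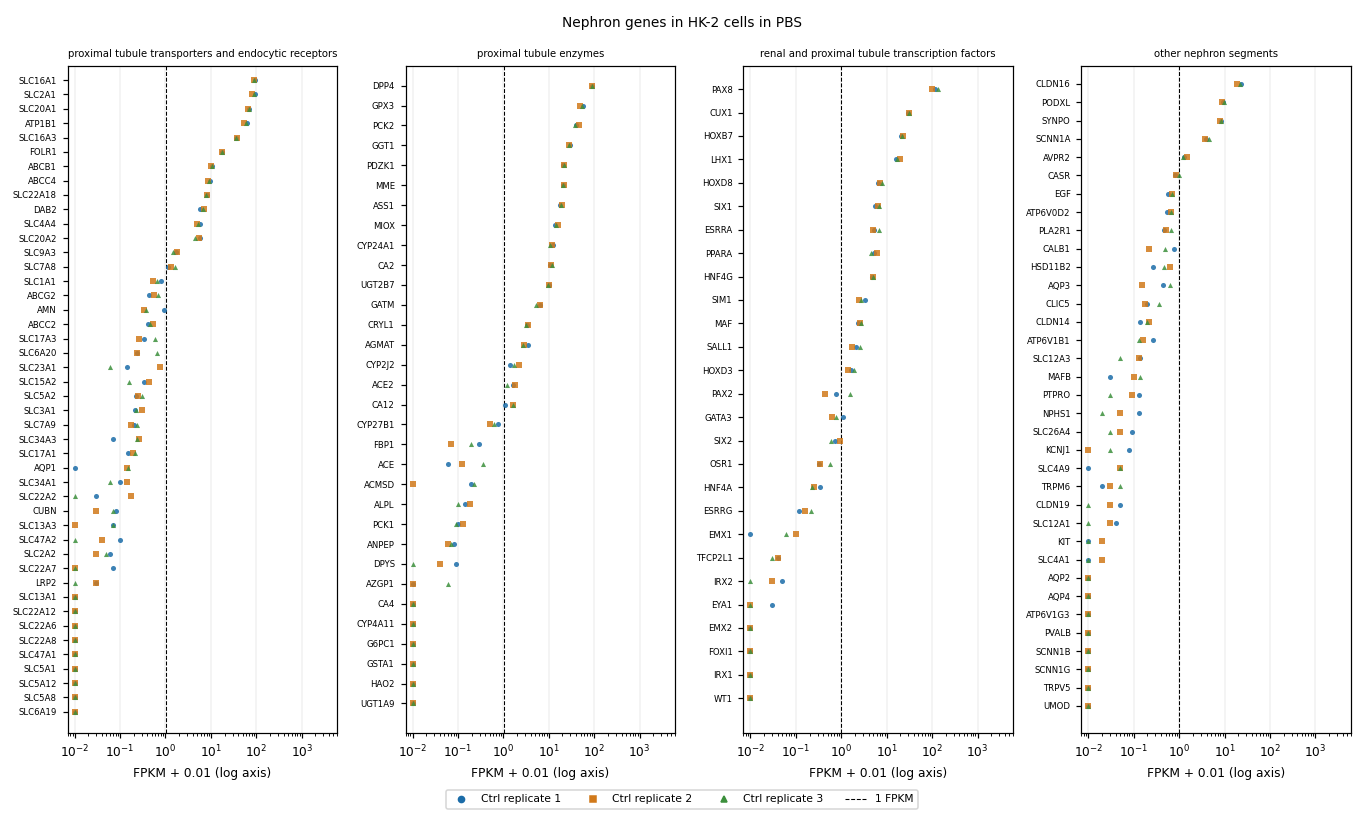
FPKM plus 0.01 on a log axis for the genes of the 4 nephron lists reported here, 1 point per PBS library, genes ordered by mean, dashed line at 1 FPKM. DPP4 and PAX8 head the enzymes and the transcription factors, CLDN16 at 19.0 to 22.9 FPKM is the highest gene of the other segments, and points at the left edge are libraries at 0.

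Of the renal transcription factors, 14 of 29 were present (48.3%, beside 57.7%), 2 were mixed, 9 were below the floor and EMX2, WT1, FOXI1 and IRX1 were not detected. PAX8, which marks the kidney epithelium from its origin onward, was the highest at 116.5, 97.2 and 131.5 FPKM. HNF4A, a driver of proximal tubule maturation, was below the floor at 0.33, 0.24 and 0.22 FPKM. HNF4G averaged 4.90 FPKM and stood 14.4 to 22.6 times above it, a ratio left imprecise by the 12 to 19 counts of HNF4A. The early nephron factor LHX1 had 16.2, 20.1 and 17.0 FPKM. PAX2 was mixed, at 0.75, 0.42 and 1.53 FPKM.

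The counts of 6 of 20 renal factors tested, among them PAX8, LHX1, SIM1, SALL1 and PAX2, differed between the 3 libraries beyond counting error. In PAX8 the lowest library was library 2 and the highest was library 3. The share, 30.0%, stands beside 15.7% over all genes tested, by the test given with the evenness of the libraries.

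Genes of other nephron segments were mostly absent or low: 5 of 36 were present (13.9%, beside 57.7%), 22 were below the floor and 9 were not detected, with a median of 0.065 FPKM. The 5 were CLDN16, PODXL, SYNPO, SCNN1A and AVPR2. CLDN16, a claudin of the thick ascending limb that carries magnesium and calcium, had 22.9, 19.0 and 22.0 FPKM. PODXL and SYNPO, known from podocytes, averaged 9.27 and 8.21 FPKM, but NPHS1, of the slit diaphragm, had 9, 3 and 1 counts. UMOD of the thick limb, PVALB and TRPV5 of the distal tubule, and AQP2, AQP4, SCNN1B and SCNN1G of the collecting duct were not detected. Levels of the remaining members reached at most 0.96 FPKM in a library, for the calcium-sensing receptor CASR.

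The label of the cells as kidney epithelium was set against these markers. The kidney factor PAX8, the enzymes GGT1, MIOX and DPP4 and the simple keratins below were measured in every library. PDZK1, MME, SLC4A4 and SLC9A3, known from the proximal tubule, were present as well. The counts of GGT1 and SLC9A3 were fractional in every library, as estimated counts are where some reads also fit other genes. The receptors and transporters LRP2, CUBN, SLC34A1, SLC5A1 and AQP1, which are also used to define that segment, were at or near 0.

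Most genes of epithelial structure were present, and E-cadherin was among those below the floor. The list of junction and polarity genes had 38 of 49 members present (77.6%, beside 57.7% over all IDs), 1 mixed and 10 below the floor, and none was at 0 in all 3 libraries. Its median was 8.95 FPKM. CLDN1, a sealing claudin of tight junctions, was the highest with 348, 347.7 and 338 FPKM. EPCAM, a surface marker of epithelia, had 78.3, 81.9 and 73.2 FPKM.

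CDH1 (chr16:68737225-68835548), which encodes E-cadherin, stood at 0.94, 0.99 and 0.76 FPKM, on 76, 61 and 53 counts, just under the floor in each library. CDH2 (chr18:27950966-28177446), encoding N-cadherin, had 41.6, 43.2 and 41.9 FPKM. The level of CDH2 was 43.6 to 55.1 times that of CDH1, and the values of the pair lay far apart in every library. Human proximal tubule cells are known to carry N-cadherin in place of E-cadherin. The kidney cadherins CDH6 and CDH16 averaged 9.09 and 4.49 FPKM, and CDH3 2.72 FPKM.

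The catenins that tie cadherins to actin were high, with CTNNA1 at 118, 127 and 114 FPKM and CTNNB1 at 63.0, 55.6 and 58.4 FPKM. The tight junction scaffold TJP1 averaged 51.6 FPKM, and occludin, OCLN, 2.99 FPKM. Desmosomal DSP and DSG2 averaged 48.7 and 36.8 FPKM. Adherens junctions, tight junctions and desmosomes thus each had some of their genes among those present. The polarity genes DLG1, PARD3 and PALS1 averaged 62.5, 36.7 and 35.8 FPKM. CLDN2 and CLDN10, the leaky claudins of the proximal tubule and neighbouring segments, stood at 1.33 FPKM on average and at 0.16, 0.06 and 0.03 FPKM, and CLDN1 was 218 to 310 times the level of CLDN2. CLDN3, CLDN7, RAB25 and ST14 were below the floor.

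The highest keratins were those of simple epithelia. KRT8 had 293, 289 and 287 FPKM, KRT18, its filament partner, 176, 171 and 170.2 FPKM, and KRT19 153, 153 and 154 FPKM. KRT80 averaged 96.7 FPKM, KRT7 63.7 FPKM, KRT10 15.7 FPKM and KRT15 1.58 FPKM. In all, 7 of 21 keratins were present (33.3%, beside 57.7%), 1 was mixed, 7 were below the floor and 6 were not detected. Of the keratins of stratified epithelium, KRT10 and KRT15 were thus present, while KRT1, KRT5, KRT6A, KRT6B and KRT14 were not detected, nor was KRT75. KRT8 exceeded KRT18 by 1.67 to 1.69 times, a ratio that varied little between libraries.

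Of the epithelial transcription and splicing regulators, 9 of 18 were present (50%, beside 57.7%), 6 were below the floor, and ELF5, TP63 and FOXA2 were not detected. KLF5 and ELF3 were the highest, with means of 33.6 and 17.2 FPKM. The splicing regulators ESRP2 and ESRP1, which set the epithelial forms of many transcripts, averaged 10.0 and 2.45 FPKM. GRHL2, an activator of E-cadherin in many epithelia, had 0, 1 and 1 counts, while GRHL1 averaged 1.78 FPKM. OVOL2, a repressor of mesenchymal factors, stayed below the floor at 0.81, 0.88 and 0.36 FPKM.

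**Figure D3:**
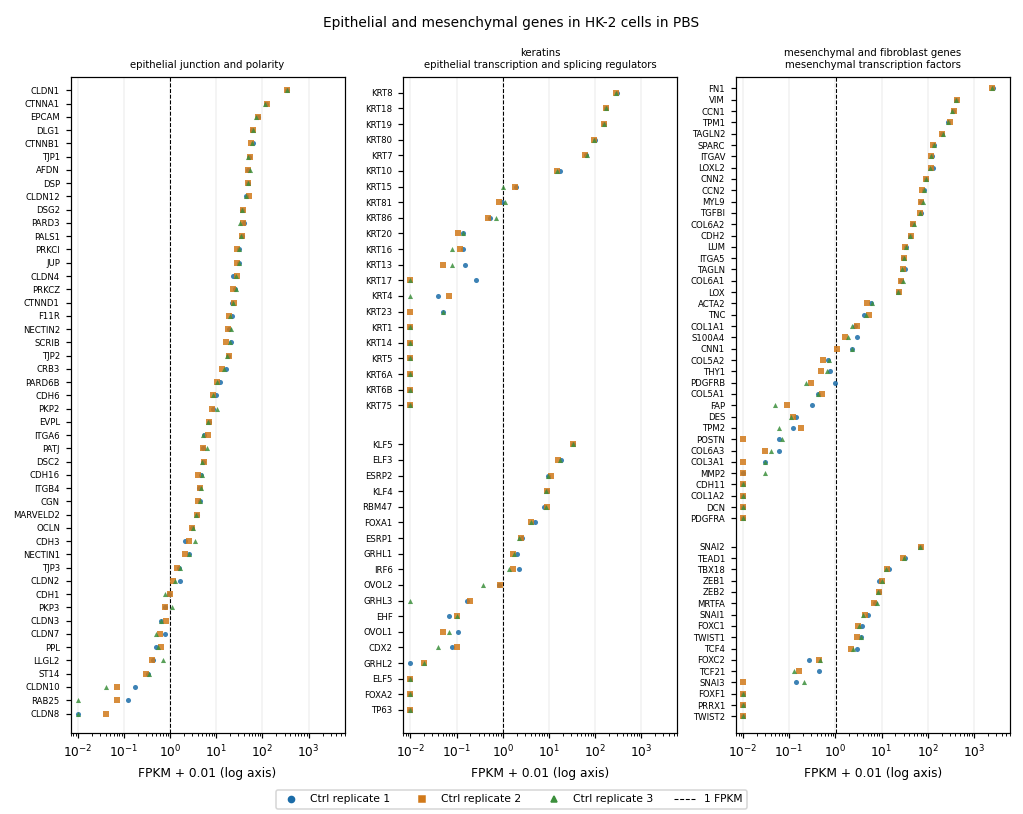
FPKM plus 0.01 on a log axis for the genes reported here of the epithelial lists (left and middle) and the mesenchymal lists (right), 1 point per PBS library, genes ordered by mean within a list, dashed line at 1 FPKM. CLDN1, KRT8 and FN1 head their lists, and CDH1 lies at the line while CDH2 lies at 41.6 to 43.2 FPKM.

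Mesenchymal genes ranged from the highest level of any list gene to 0, and their share present was near that of all IDs. Of 40 mesenchymal and fibroblast genes, 25 were present (62.5%, near the 57.7% of all IDs), 11 were below the floor and 4 were not detected. The median was 14.5 FPKM. VIM, the intermediate filament of mesenchymal cells, had 403, 439 and 410.2 FPKM. It lay above KRT8 in every library, by 1.38 to 1.52 times. After FN1 and VIM came CCN1, a matricellular target of the Hippo pathway, at a mean of 357 FPKM, TPM1 at 282 FPKM, TAGLN2 at 206 FPKM and SPARC, a collagen-binding protein, at 134 FPKM. The integrin ITGAV had 127, 116 and 118 FPKM, and the collagen cross-linker LOXL2 128, 118 and 112 FPKM. MYL9 and CCN2 averaged 74.4 and 80.5 FPKM. Other contractile and actin-binding genes ranged widely. CNN2 averaged 92.0 FPKM and TAGLN had 32.3, 29.6 and 27.6 FPKM. CNN1 was low at 2.26, 1.05 and 2.24 FPKM, and TPM2 and DES were below the floor.

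The fibrillar collagens were low. COL1A1 had 2.68, 2.92 and 2.24 FPKM, COL1A2, the chain with which it forms type I collagen, was not detected, and COL3A1 had 1, 0 and 2 counts. COL5A1 and COL5A2 were below the floor. Type VI collagen was split, with COL6A1 and COL6A2 at means of 27.1 and 48.1 FPKM and COL6A3 at 7, 2 and 4 counts. ACTA2, smooth muscle actin, was present at 5.86, 4.82 and 6.13 FPKM. The fibroblast markers PDGFRA, DCN and CDH11 were not detected, PDGFRB had 0.96, 0.28 and 0.22 FPKM, and POSTN and FAP were below 0.4 FPKM in each library. Other genes used as fibroblast markers were present, with the small proteoglycan LUM at 34.7, 32.9 and 33.7 FPKM and S100A4 at 2.99, 1.6 and 1.91 FPKM.

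Of the mesenchymal transcription factors 10 of 16 were present (62.5%, near the 57.7% of all IDs), with a median of 3.34 FPKM. SNAI2, a repressor of E-cadherin, was the highest at 68.7, 72.3 and 69.3 FPKM, 13.6 to 17.3 times SNAI1. The Hippo effector TEAD1 averaged 30.7 FPKM and TBX18 13.5 FPKM. ZEB1 and ZEB2, repressors of the same promoter, had close levels, with means of 9.80 and 8.48 FPKM, and ZEB1 was the higher in all 3 libraries. TWIST1 averaged 3.30 FPKM. FOXC2, TCF21 and SNAI3 were below the floor, and TWIST2, PRRX1 and FOXF1 were not detected.

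Innate immune genes were measured in all 5 lists of this kind, from 84.4% of members present among receptors for interferons and cytokines to 27.3% among complement and antimicrobial effectors. Of 35 pattern receptors and adaptors, 22 were present (62.9%, near the 57.7% of all IDs), 1 was mixed, 9 were below the floor and 3 were not detected. Among the 10 Toll-like receptors 3 were present, 4 were below the floor, and TLR7, TLR8 and TLR9, which sense nucleic acids in endosomes, were not detected. TLR2, a receptor for bacterial lipoproteins, had 6.63, 6.78 and 6.55 FPKM. TLR3, the receptor for double-stranded RNA, had 4.51, 4.59 and 4.52 FPKM, and TLR6, a partner of TLR2, 1.78, 2.25 and 2.09 FPKM.

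TLR4, the endotoxin receptor and a known receptor for S100A8/S100A9, was below the floor with 0.41, 0.44 and 0.62 FPKM on 40, 40 and 59 counts. TLR2 was 10.6 to 16.2 times higher. Of the helpers of TLR4, LY96 was present at 8.45, 8.23 and 8.51 FPKM, CD14 was below the floor at 0.15, 0.27 and 0.50 FPKM, and LBP had 1, 0 and 0 counts. AGER, the other well-known receptor for S100 proteins, had 2.09, 1.68 and 2.01 FPKM.

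Downstream of these receptors, the adaptor MYD88 had 5.30, 4.76 and 5.81 FPKM and TICAM1 6.21, 6.33 and 6.07 FPKM. The kinase IRAK1 was the highest of the list at 109, 105.5 and 106 FPKM, and TAB2, RIPK2 and MAP3K7 averaged 44.5, 24.3 and 23.6 FPKM. TICAM2, the adaptor that links TLR4 to TICAM1, was mixed at 0.66, 1.37 and 1.17 FPKM. The cell wall sensor NOD1 was present at 2.36 FPKM on average, while NOD2 had 1, 0 and 0 counts. The lectin CLEC4E had 5.06, 5.41 and 2.99 FPKM and the scavenger receptor MSR1 3.83, 7.26 and 5.02 FPKM.

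Of 34 inflammasome and cytosolic sensing genes 22 were present (64.7%, near the 57.7% of all IDs), 1 was mixed, 8 were below the floor and 3 were not detected. IFI16, a DNA sensor, had 61.7, 69.2 and 61.4 FPKM. Library 2 lay above the other two. EIF2AK2 and TRIM25, of the answer to viral RNA, both averaged 37.4 FPKM, and the RNA sensors RIGI and IFIH1 10.7 and 7.38 FPKM with their adaptor MAVS at 17.6 FPKM. CGAS averaged 18.7 FPKM and STING1, which acts after it, 4.52 FPKM.

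Of the inflammasome genes some were present and others were not. The sensors CARD8, NLRP1 and NAIP were present at means of 11.6, 3.40 and 2.81 FPKM. The sensor NLRP3 was not detected, nor were NLRP6 and CASP5, and CASP1, the protease that matures IL-1 cytokines, had 0, 1 and 3 counts. The inflammasome adaptor PYCARD was present at 4.76, 4.66 and 4.38 FPKM and the pore protein GSDMD at 8.66, 8.51 and 9.37 FPKM. CASP4 stood at 0.30, 0.56 and 0.51 FPKM. IL1B had 0, 0 and 1 counts, while IL18 had 13.2, 12.9 and 11.5 FPKM.

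Receptors for interferons and cytokines, counted with their kinases and transcription factors, were the list with the highest share of genes present among the 17, with 27 of 32 (84.4%, beside 57.7%) and a median of 15.1 FPKM. JAK1, TNFRSF1A, LTBR and TNFRSF12A averaged 75.6, 70.7, 64.6 and 70.2 FPKM. The type I interferon receptor chains IFNAR1 and IFNAR2 averaged 36.0 and 15.1 FPKM, and IL6ST, the shared signal chain of IL-6 family receptors, 59.0 FPKM. IL1R1, IL18R1, IL22RA1 and TNFRSF1B were below the floor, and IL1RL1 was not detected. TNFRSF1A, the main TNF receptor, stood 106 to 289 times above TNFRSF1B, whose 15 to 41 counts leave that ratio imprecise.

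Cytokine and chemokine genes were mostly low, with 19 of 43 present (44.2%, beside 57.7%), 2 mixed, 13 below the floor and 9 not detected, and a median of 0.65 FPKM. MIF, made by most cells, had 156, 150.5 and 156 FPKM. IL32 had 46.4, 57.5 and 46.6 FPKM, and CSF1, a growth factor for macrophages, 34.7, 33.0 and 39.5 FPKM. Library 2 was highest in IL32 and library 3 in CSF1. LIF and IL6 averaged 23.1 and 7.10 FPKM. The classical inflammatory cytokines TNF and IL1A were below the floor, with TNF at 3, 1 and 5 counts.

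Among chemokines that attract neutrophils, CXCL8 had 20.03, 22.9 and 20.96 FPKM, and CXCL2 6.30, 6.78 and 6.78 FPKM. CXCL8 was 3.09 to 3.38 times CXCL2 in level. CXCL5 averaged 1.78 FPKM, CXCL3 was mixed at 0.49, 0.76 and 1.16 FPKM, and CXCL1 (chr4:73869393-73871242) and CXCL6 had 0 counts in all 3 libraries. These genes share much sequence, and how reads that match several of them were assigned is not stated. The interferon-induced CXCL9, CXCL10 and CXCL11 had at most 6 counts in a library, and CCL2, CCL5 and CCL20 were below the floor. CX3CL1 and CCL28 were present at means of 5.87 and 5.66 FPKM.

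Complement regulators at the cell surface stood out in the list of complement and antimicrobial effectors, of which 12 of 44 genes were present (27.3%, beside 57.7%), 19 were below the floor and 12 were not detected. CD59, which blocks the membrane attack complex, had 161, 156 and 152 FPKM, CD46 108, 106 and 104 FPKM, and CD55 30.1, 34.3 and 33.1 FPKM. All 3 block complement on the cell's own membrane. C3 averaged 16.4 FPKM, CFB 7.70 FPKM and CFI 7.09 FPKM. C1QA, C1QB, C6, C7 and CFD were not detected. C4A and C4B, near-identical copies, stood at 0.29 to 0.49 and 0.30 to 0.58 FPKM, and their reads cannot be told apart with certainty.

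Of the antimicrobial genes in that list, LCN2, which withholds iron from bacteria, was the only one present, at 4.92, 10.6 and 7.42 FPKM. Its highest library had more than 2 times the lowest. RNASE4 was mixed at 1.05, 1.12 and 0.68 FPKM. S100A8, S100A9, S100A12, S100A7, BPI, DEFB4A and PGLYRP1 were not detected, and LTF, MPO, CAMP and LYZ had at most 3.2 estimated counts in a library. The cells in PBS thus held no measured transcript of either S100 protein used in the study.

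**Figure D4:**
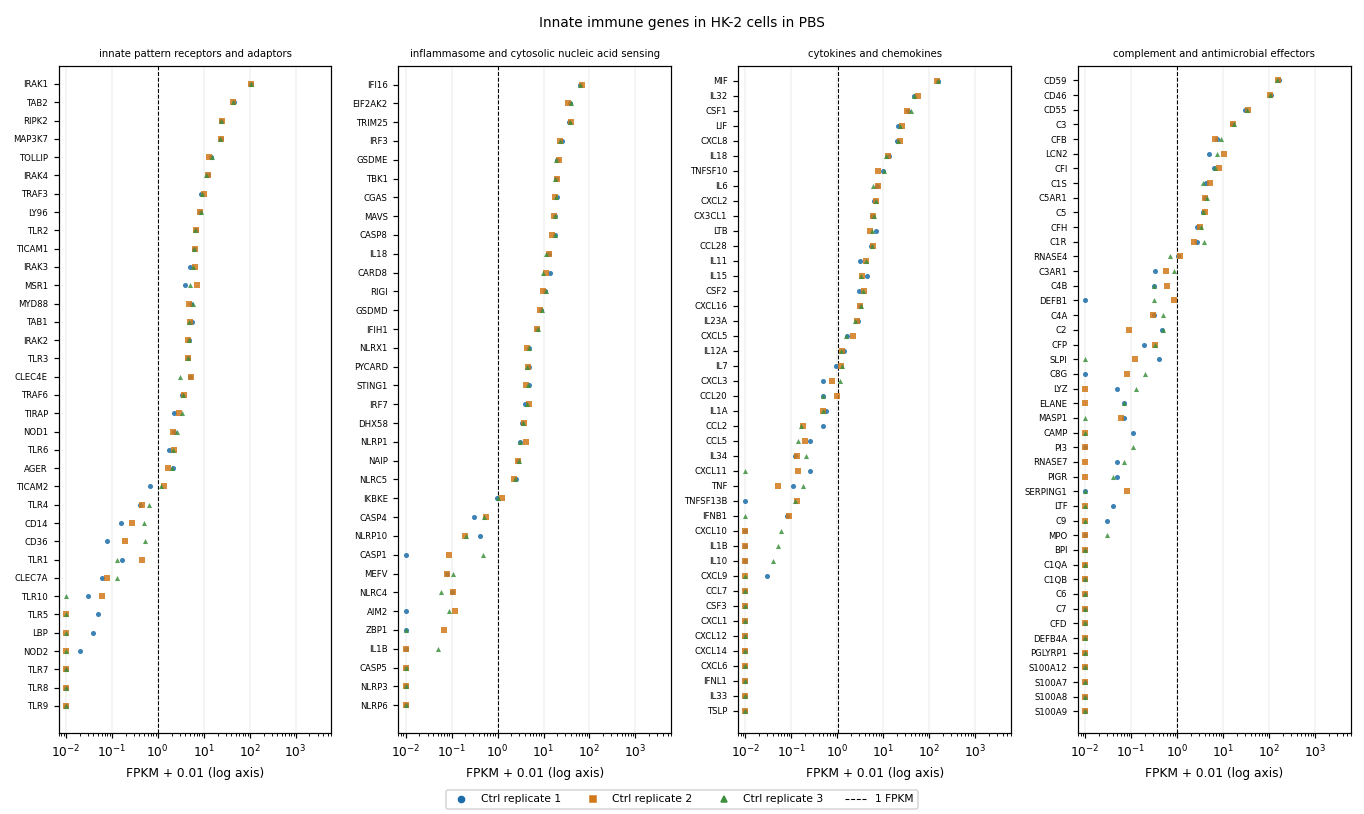
FPKM plus 0.01 on a log axis for the genes reported here of 4 innate immune lists, 1 point per PBS library, genes ordered by mean, dashed line at 1 FPKM and libraries at 0 on the left edge. IRAK1, IFI16, MIF and CD59 head the lists, TLR4 lies left of the line at 0.41 to 0.62 FPKM, and the zeros at the foot of the lists include TLR7, NLRP3, CXCL1 and S100A9.

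Markers of other cell types were checked in the same libraries. Of 27 leukocyte and erythroid markers, 4 were present (14.8%, beside 57.7%), 3 were mixed, 8 were below the floor and 12 were not detected, among these PTPRC, CD3D, CD3E, MS4A1, TYROBP and HBB. The list summed to 111, 124 and 124 FPKM, most of it from CD68, a lysosomal protein that many cell types make, at 58.7, 66.7 and 62.7 FPKM, and CD74, the invariant chain of MHC class II, at 45.6, 49.4 and 52.3 FPKM. ITGAX and FCER1G were the others present, at means of 2.84 and 1.40 FPKM, and CSF1R, LCP1 and HBA1 were mixed. Of 16 endothelial markers 4 were present (25%), 9 were below the floor, and CDH5, FLT1 and EMCN were not detected. That list summed to 12.1, 13.0 and 12.8 FPKM, with EGFL7 highest at a mean of 5.81 FPKM, followed by ESAM at 2.35 FPKM, ERG at 1.86 FPKM and ENG at 1.14 FPKM. PECAM1 had 2, 0 and 5 counts, and VWF 16, 33 and 47 counts, below the floor. A part of other cells in the levels of shared genes was not tested.

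The 3 libraries were close to each other. Over all 20286 IDs, Pearson's r of log2(FPKM + 1) between pairs of libraries was 0.9974 to 0.9976, a description over genes that share their libraries and are not independent replicates. Between pairs, 61.4% to 64.7% of the 11698 present genes lay within 10% of each other, and 20 to 31 genes differed by more than 2-fold. The number of genes above 0 was 15571, 15483 and 15572, and the median FPKM 3.48, 3.49 and 3.56. The coefficient of variation (CV) of FPKM over the 3 libraries had a median of 5.96% in present genes, and 75.8% of them had a CV of 10% or less.

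The CV fell with the number of counts, from a median of 15.1% in genes with a mean of 10 to 50 counts to 2.94% in genes with at least 5000. Counting error alone has an expected CV, set by the mean count, of 16.1% and 1.15% in those genes. The median of a CV taken over 3 libraries lies somewhat below such a value. At 10 to 50 counts the measured CV thus cannot be ranked against counting error. From 50 counts on the measured CV was larger than the expected value, and the common biological CV estimated by edgeR was 4.41%.

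A chi-square test of homogeneity, with Benjamini-Hochberg adjustment, compared the counts of each gene with those expected from the library sizes. It asks whether these 3 libraries differ beyond counting error and compares no conditions. Of 13260 genes tested, 2081 (15.7%) differed at an adjusted p under 0.05, with 673 of those at 1 FPKM or more highest in library 1, 683 in library 2 and 638 in library 3. Power rose with depth: 7.35% of genes with 10 to 100 counts were called and 60.6% of those with at least 5000. Most such differences were small, with a median range of 0.22 on the log2 scale. Each pair of libraries also differed beyond sampling noise, with a ratio of chi-square to its degrees of freedom of 3.13, 3.31 and 3.67 where sampling noise gives 1, so no pair looked like 1 library deposited again. This does not show that the libraries came from separate cultures.

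The mitochondrial genes moved together between libraries. All 13 differed beyond counting error (100%, beside 15.7%), and all 13 were highest in library 3, by a median of 0.08 on the log2 scale above the count for even libraries. In libraries 1 and 2 the medians were -0.07 and -0.05. MT-ND3, of complex I, had 1712, 1786 and 2291 FPKM and MT-ND4L 1632, 1682 and 2093 FPKM. Of the 77 ribosomal protein genes 51 differed (66.2%), and 12 were above the even level in library 1, against 54 in library 2 and 44 in library 3. The median deviations were -0.03, 0.02 and 0.02. These highly expressed genes are those in which the test has most power, and library handling as a part of the difference was not tested.

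**Figure D5:**
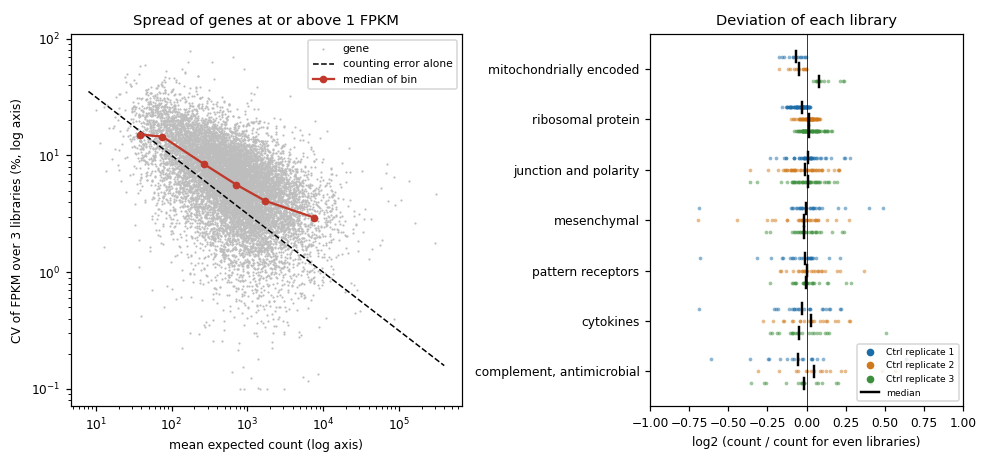
Left, the CV of FPKM over the 3 PBS libraries against the mean expected count of each present gene, on log axes, with the median of each count bin in red and the CV from counting error alone dashed. Right, log2 of the count over the count for even libraries, 1 point per gene and library, black marks for medians. The medians of the bins run from 15.1% to 2.94%, and the mitochondrial genes lie right of 0 in library 3 and left of it in libraries 1 and 2.

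Among the gene lists, 14 of 29 tested mesenchymal genes (48.3%), 15 of 45 junction and polarity genes (33.3%) and 11 of 31 interferon and cytokine receptors (35.5%) differed between the libraries, beside 15.7% of all genes tested. Pattern receptors and adaptors had 3 of 24 (12.5%), cytosolic sensing genes 3 of 24 (12.5%), cytokines 4 of 22 (18.2%), complement and antimicrobial genes 4 of 17 (23.5%), keratins 1 of 9 (11.1%), epithelial regulators 1 of 10 (10.0%) and mesenchymal transcription factors 0 of 11. Proximal tubule transporters had 6 of 23 (26.1%), the enzymes 3 of 18 (16.7%), genes of other segments 1 of 13 (7.69%), endothelial markers 1 of 6 (16.7%) and leukocyte markers 0 of 7. The first 3 of these lists had median levels of 8.95 to 15.1 FPKM. The list medians of the deviation stayed within 0.11 of 0 on the log2 scale in each library apart from the 6 endothelial genes, at -0.22 in library 1.

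The largest differences between the libraries lay mostly in genes with fractional counts, which estimated counts show where reads fit more than 1 gene. Of the genes at 1 FPKM or more that differed, 54 had a range over 1 on the log2 scale, and 37 of these (68.5%) had fractional counts. The 6 genes of largest range were named for each library as the highest one, and of these 18 genes 16 had fractional counts. Fractional counts occurred in 20% of all genes tested. SMIM11 (chr21:34375480-34407866) had 16.1, 3.18 and 0.38 FPKM, and ENSG00000273590 (chr21:7744962-7777853), annotated in GENCODE as a copy of it, had 1.6, 14.1 and 19.3 FPKM. Library 1 was thus highest in the one and lowest in the other. Their counts added to 268, 244 and 305, whole numbers, or 15.7, 15.4 and 17.3 CPM, with a CV of 6.57%.

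The same sum was made for all 16 genes with fractional counts, a choice made after the values were seen. Partners were the genes that overlap them on the same strand or carry the same name. For the SMIM11 pair and HIST2H2AA4 the partner was a near-identical copy picked by hand. The sums were whole within 0.021 in all 3 libraries for 13 of the 16, the SMIM11 pair being counted from both sides. The median CV of CPM was 73.8% for the single genes and 5.69% for the sums, with single genes at 46.9% to 120.0% and sums at 1.13% to 29.8%. In many of these sums the partner holds most of the counts, so the CV of the sum is largely that of the partner.

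Examples are ENSG00000285508, 1 of 3 IDs named MKKS, which had 0, 3.25 and 1.34 FPKM, while the 3 IDs together had 53.3, 56.0 and 49.3 CPM. The readthrough gene COMMD3-BMI1 had 0.42, 2.96 and 0.89 FPKM, and summed with COMMD3 and BMI1 90.4, 90.2 and 81.1 CPM. POC1B-GALNT4 had 0.98, 2.08 and 0.67 FPKM, and with POC1B and GALNT4 52.8, 51.8 and 50.8 CPM. In each of these the libraries were far apart for the single ID and close for the sum. HIST2H2AA4 remained the most variable of the sums, with 23, 22 and 39 counts together with HIST2H2AA3.

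Only TNNC1 and SMTNL2 of the 18 had whole counts. SMTNL2 (chr17:4583999-4608319), a smoothelin-like gene, had 1.77, 0.70 and 3.91 FPKM on 65, 23 and 96 counts. TNNC1, a troponin of slow and cardiac muscle, had 1.79, 0.72 and 0.50 FPKM on 21, 8 and 6 counts. Both were low genes whose libraries differed in different order, library 3 being highest for SMTNL2 and library 1 for TNNC1.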

How the data were processed

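Per the labels' protocols, total RNA was extracted with Trizol, mRNA was enriched with oligo(dT) beads, fragmented and copied with random primers, and libraries were sequenced on an Illumina instrument. The authors deposited 1 table with an expected count and an FPKM value per gene and library, per the file headers. The expected counts are estimated reads: 12.1% of those in the Ctrl libraries were not whole. FPKM is the authors' own scaling of the deposited values to gene length and depth. Which aligner, counter and annotation were used is not given in the sources used here. Mouse builds, GRCm38 and mm10, are named in the submitters' processing notes, but all 20286 IDs are those of human genes. The true build is thus unknown, and coordinates come from GENCODE 29 on GRCh38. A gene name table gave names for 20228 IDs and GENCODE for 50, and 8 have none. Some names in that table are the ID itself, as for 8 of the 18 uneven genes named.

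For this text the 6 Ctrl columns of 3 libraries were used, with totals of 15882193 to 17593989 counts, which set the floors given for counts of 0. The columns were matched by the labels' descriptions, and 0 columns of per-sample values and 0 rows were left unmatched. Members and lists (17 lists, 541 different genes, all matched) were chosen with earlier results of these data known. Named genes were the 25 of highest mean FPKM, up to 10 of the highest members of each list and up to 12 of those below 1 FPKM, and the 6 genes of largest range with each library highest among those called with a mean of at least 1 FPKM. Other genes and the ratios between genes were chosen after their values were seen. Levels are means with the SD over 3 libraries. For the evenness test, the expected counts, rounded to whole numbers, were scaled by TMM in edgeR 4.0.16 (R 4.3.3), genes with a mean of at least 10 counts were kept, and a chi-square test with 2 degrees of freedom was adjusted over all genes at a threshold of 0.05. It was tested on simulated data. Alternatives were size factors of DESeq2 1.42.0, library totals, other filters, other floors, TPM and CPM, and leaving out each library. Summing counts over overlapping genes and copies was added after the data were seen. No set test was run. Some genes of the lists are counted but not reported here by name.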

Additional observations from a re-analysis of the deposited data

How the results depend on the processing

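Counts of genes present depended on the floor mainly in lists of low genes. At 5 FPKM the members present fell to 7 renal transcription factors, 3 genes of other nephron segments, 5 epithelial regulators, 6 mesenchymal transcription factors, 11 pattern receptors and adaptors, 14 cytosolic sensing genes, 12 cytokines, 6 complement and antimicrobial genes, 2 leukocyte markers and 1 endothelial marker. Genes of other nephron segments came to 8 at 0.5 FPKM and to 9 at 1 TPM or at 1 CPM in place of 1 FPKM, and endothelial markers to 1 at 2 FPKM. The share of the summed FPKM held by the 100 most abundant genes was 22.55% without the mitochondrial genes, and the 100 genes with the most counts held 19.81% of the expected counts. With each library left out in turn, 1016 to 1383 genes differed beyond counting error between the remaining pair, as fewer samples were tested. The remaining lists and totals moved by less than 1.5 times. TPM in place of FPKM rescales every level by construction and left the order of genes within a library as it was. No paired analysis was possible because the values come from 1 group and no groups were compared. Depth limits statements on genes at 0, since up to 0.189 CPM could be present unseen in library 2 alone. For 0 counts in all 3 libraries together the limit is lower. Depth also limits statements on genes with under 50 counts, whose median CV was not told apart from counting error.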

Other observations

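Genes known from injured or dedifferentiated tubule were abundant in the untreated cells. Of 26 tubular injury and progenitor markers 19 were present (73.1%, beside 57.7% over all IDs), 2 were mixed and 5 were below the floor, with a median of 40.2 FPKM. SPP1, which encodes osteopontin, had 569.7, 532 and 533.5 FPKM. HAVCR1, the injury marker KIM-1, had 39.5, 32.4 and 33.4 FPKM, highest in library 1. The stress cytokine GDF15 had 125, 125.5 and 142 FPKM, and the receptor kinase AXL 141, 133 and 135 FPKM. CD44, a hyaluronan receptor of injured tubule, averaged 87.1 FPKM and CD24, a marker of tubule progenitors, 47.3 FPKM, while PROM1, another progenitor marker, was below the floor at 0.15, 0.33 and 0.10 FPKM. The adhesion molecules also differed in level, with ICAM1 at 56.9, 57.6 and 57.9 FPKM and VCAM1 at 0.24, 0.20 and 0.11 FPKM. SOX9, a factor of tubule repair, stayed just below the floor at 0.89, 0.83 and 0.80 FPKM. Of the 22 members tested, 12 (54.5%) differed between the libraries beyond counting error, beside 15.7% of all genes tested. Over all genes the share called rose with depth, to 25.4% at 1000 to 5000 counts and 60.6% from 5000 counts on. The list was not set against genes of like depth, so its share is no trait of injury markers as such.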
